A study of Homo sapiens with 47 samples.

Results

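The genes of cholesterol and fatty acid synthesis were followed in single circulating tumor cells (CTC) of the human triple-negative breast cancer line LM2 and in LM2 cells grown in culture. The set holds 31 of the 25739 genes measured and is given by a list of gene names, with no threshold on measured values. It has a sterol arm of 22 genes, which covers steps from acetyl-CoA to cholesterol and some of their regulators, and a fatty acid arm of 9 genes. The list does not hold every enzyme of either pathway. LM2 is a lung-metastatic derivative of the MDA-MB-231 line. GFP-labeled LM2 cells were injected into the mammary fat pad of NOD/SCID gamma (NSG) mice aged 6 to 8 weeks, which lack functional lymphocytes, and blood was taken when the primary tumors were large. CTCs were enriched from blood by size, selected as GFP-positive and CD45-negative cells, and picked one by one, and each cell gave 1 SMARTseq2 library. There were 2 CTCs from mouse 5541, 4 from mouse 5542, 10 from mouse 5545, 17 from mouse 5546 and 4 from mouse 5549, and 6 cultured cells. The cultured cells were grown in DMEM with serum. No group received a drug, and all cells derive from 1 cell line. The labels give every library the same batch.

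Cells make cholesterol from acetyl-CoA through mevalonate, farnesyl diphosphate and squalene, and they make fatty acids from citrate-derived acetyl-CoA that is then elongated and desaturated. The transcription factors SREBP-2, encoded by SREBF2, and SREBP-1, encoded by SREBF1, induce genes of both arms when membrane sterol is low. INSIG1 holds these factors in the endoplasmic reticulum when sterol is plentiful. Cells in culture medium or in blood can also take up sterols and fatty acids from lipoproteins and albumin.

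The upstream sequence of these genes was searched for 2 motifs known from SREBP-driven promoters. RefSeq windows on GRCh38.p14 were matched by gene symbol for 27 of the 31 members, and the 250 bases before each transcription start were read on both strands. The letters CCAAT, the box bound by NF-Y, occurred in 20 of these 27 members (74.1%) and in 37% of 27305 genes with a window. Of the members, 13 held the box at least 2 times in a window, against 11.5% of all genes. The SREBP site TCACNCCAC occurred in 1 member, SREBF2 itself, at positions -133 to -125 from the start, and in 1.09% of all genes. The other 26 members did not hold these letters in this window. Shown here are SREBF2, as the only member with that site, MSMO1 and EBP, as sterol enzymes with 4 and 3 CCAAT boxes, and SCD, as a fatty acid desaturase with 2. Each sequence has 240 bases, runs 5′ to 3′ along the gene's strand, ends at position -11 and overlaps no annotated untranslated region. The SREBF2 window lies within an exon of the antisense RNA gene SREBF2-AS1. Capitals mark CCAAT, its reverse complement ATTGG, and the SREBP site.
SREBF2 (chr22:41832855-41833094, plus strand): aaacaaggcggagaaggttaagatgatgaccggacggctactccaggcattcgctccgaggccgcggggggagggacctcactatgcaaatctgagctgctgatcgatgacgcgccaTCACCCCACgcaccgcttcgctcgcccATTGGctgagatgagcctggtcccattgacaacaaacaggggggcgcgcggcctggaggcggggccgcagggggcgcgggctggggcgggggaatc
MSMO1 (chr4:165327419-165327658, plus strand): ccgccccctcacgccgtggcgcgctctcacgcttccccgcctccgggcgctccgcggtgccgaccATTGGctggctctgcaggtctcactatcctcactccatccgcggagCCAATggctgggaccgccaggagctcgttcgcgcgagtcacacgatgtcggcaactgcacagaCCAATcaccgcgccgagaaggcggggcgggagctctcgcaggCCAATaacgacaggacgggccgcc
EBP (chrX:48521558-48521797, plus strand): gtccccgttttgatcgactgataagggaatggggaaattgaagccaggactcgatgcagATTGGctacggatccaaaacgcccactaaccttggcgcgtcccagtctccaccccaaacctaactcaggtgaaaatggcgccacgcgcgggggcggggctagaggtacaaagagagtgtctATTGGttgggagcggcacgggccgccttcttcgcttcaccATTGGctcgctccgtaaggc
SCD (chr10:100346983-100347222, plus strand): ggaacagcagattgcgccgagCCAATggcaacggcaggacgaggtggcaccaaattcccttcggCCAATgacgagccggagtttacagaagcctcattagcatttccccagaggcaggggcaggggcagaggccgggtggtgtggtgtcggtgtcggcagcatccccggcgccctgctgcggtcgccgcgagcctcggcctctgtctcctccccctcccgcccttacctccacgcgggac
A match of letters is a description of the sequence, and factor binding was not measured.

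Levels were the deposited values, in which the reads counted on each gene were divided by a size factor for the cell. Every nonzero value was a whole multiple of the smallest one of its cell (100% of values, tolerance 0.001), so whole reads were recovered. The cells had 469614 to 2041333 reads on genes and 2313 to 13679 genes with at least 1 read. The size-factor scale left the cultured cells with larger totals, 1161997 to 1783225, than the CTCs, 442223 to 1169174, and log2 ratios are therefore also given in CPM, the reads of a gene scaled to a common total for all cells. On the deposited scale the median log2 ratio of CTCs to cultured cells over 9164 genes was -1.20, and in CPM it was -0.45. The 7 LM2 markers examined, among them VIM, ANXA2 and AXL, were detected in all 43 cells. Markers of the lipid-making adipocyte were near 0 in CTCs, with PLIN1 detected in 1 and FABP4 in 2 of 37 CTCs, and the hepatocyte marker ALB was at 0 in all CTCs. Erythroid markers were present in 36 of 37 CTCs at a median of 1061 and a maximum of 12772 CPM and at 0 in all cultured cells. The neutrophil marker S100A9 was present in 30 CTCs and in no cultured cell. Of the other neutrophil markers CSF3R was present in 10 CTCs and FCGR3B in 2, and S100A8 had no values. Of 4 leukocyte markers at least 1 was present in 24 CTCs and 2 cultured cells, at up to 459 CPM, and PTPRC, which encodes CD45, was present in 11 CTCs. The blood was that of mice, and reads were aligned to the human genome only. Whether reads on these markers came from mouse or human transcripts was not tested. The part of these markers in the results was not tested either.

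Both arms were lower in CTCs than in cultured cells when their genes were summed. The sterol arm summed to 1703 ± 513 CPM in cultured cells (SD, n = 6 cells) and to 931 ± 396 in CTCs (SD, n = 5 mice). The mouse means were 1462, 725, 1240, 674 and 554 CPM in mice 5541, 5542, 5545, 5546 and 5549. All 5 lay below the cultured mean, with a log2 ratio of -0.87 ± 0.60 (SD, n = 5 mice). Here and below the log2 ratio is that of the mean of the 5 mouse means. The SD beside it is that of the 5 ratios of single mice, whose own mean can differ from the ratio given. The fatty acid arm summed to 619 ± 156 CPM in cultured cells and to 246 ± 85.9 in CTCs. Its mouse means were 201, 203, 214, 400 and 215, again all below the cultured mean, with a log2 ratio of -1.32 ± 0.42. On the deposited scale the log2 ratios were -1.64 ± 0.66 for the sterol arm and -2.08 ± 0.33 for the fatty acid arm. The median over all genes tested was itself below 0, at -0.45 in CPM and -1.20 on the deposited scale. Relative to that median the deposited sums were at -0.44 for the sterol arm and -0.88 for the fatty acid arm. A sum is led by its most abundant genes, and FDPS and FADS1 led the sums in all cultured cells. No test was applied, because the cultured cells were treated as 1 sample, the number of cultures not being given in the sources used here, and the cells of a mouse are not replicates.

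**Figure D1:**
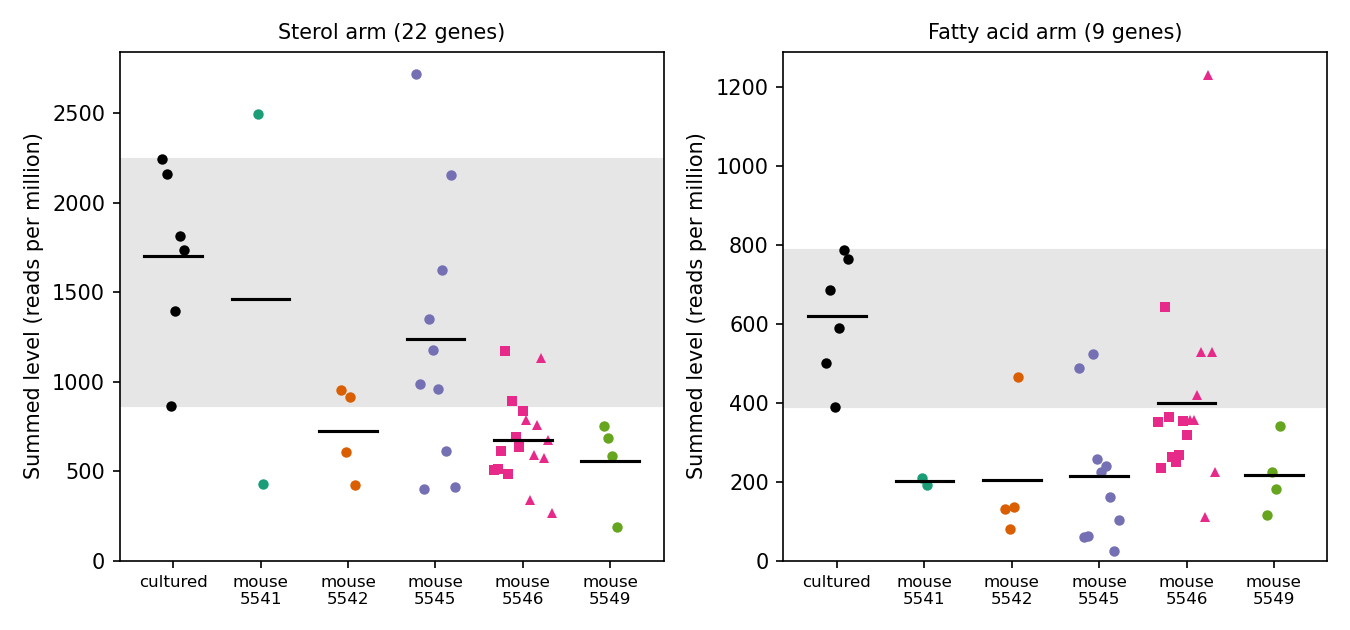
Summed level of the 22 sterol genes (left) and 9 fatty acid genes (right) in each cell, in CPM, for cultured cells and for CTCs of each mouse. Points are cells, squares and triangles are the c and s libraries of mouse 5546, horizontal lines are group means and the gray band is the range of the cultured cells. In the left panel 24 of 37 CTCs lie below the band, and in the right panel 29 of 37.

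Single CTCs spread over a wider range than the cultured cells. The sterol sum ran from 190 to 2720 CPM over the 37 CTCs, with a median of 685, and from 865 to 2245 over the cultured cells. Of the CTCs, 24 lay below the lowest cultured cell and 2 above the highest. The latter were cell 5545-1, at 2720 CPM with 20 of 22 sterol genes detected, and cell 5541-1, at 2497 with all 22 detected. Cell 5545-6 also reached 2156, but with reads in only 5 sterol genes, and NSDHL alone made up 40.2% of the sum. That cell had the fewest genes detected of all, 2313. The fatty acid sum ran from 23.8 to 1229 CPM over CTCs, with a median of 250, and from 388 to 787 over cultured cells. Here 29 CTCs lay below the lowest cultured cell, and cell 5546-s7, at 1229, lay above the highest. Across the 37 CTCs, pooled over mice, the sums of the 2 arms were not ordered alike (Spearman's rho = -0.06). Within mouse 5545 rho was 0.37, within the c libraries of mouse 5546 it was 0.18, and within its s libraries -0.07.

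Gene by gene, the rule of size asked that the mean of every mouse differ at least 2-fold from the cultured mean in the same direction, with 1 added to both, and that the larger mean be at least 8. On the deposited scale 10 of the 30 members tested were lower by this rule and 0 were higher. The rule took 25.1% of all genes tested as lower and 0.262% as higher. The sterol arm gave 5 of its 22 genes (ACAT2, MVK, FDPS, SC5D and DHCR7) and the fatty acid arm 5 of its 9 (FASN, FADS1, FADS2, ELOVL6 and ACSL3). Without the 3 CTCs that had under 5000 genes detected, 6 sterol and 4 fatty acid genes were lower. The share of all genes was not computed for this setting. In CPM MVK, SC5D, FADS1 and ELOVL6 remained, against a background of 8.72% lower and 0.695% higher among 8777 genes. After each mouse was centered on its own median over all genes, ELOVL6 alone was lower and no member was higher, where 2.65% of genes were lower and 3.52% higher. The median log2 ratio was -1.10 in the sterol arm and -1.42 in the fatty acid arm, against -1.20 over all genes tested. The difference from all genes was 0.10 for the sterol and -0.22 for the fatty acid arm, each smaller than the SD of the arm's median between mice (0.84 and 0.40). In CPM the medians were -0.37 and -0.79, against -0.45. Of the sterol genes 10 of 22 lay below the median of all genes tested, and of the fatty acid genes 6 of 9.

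**Figure D2:**
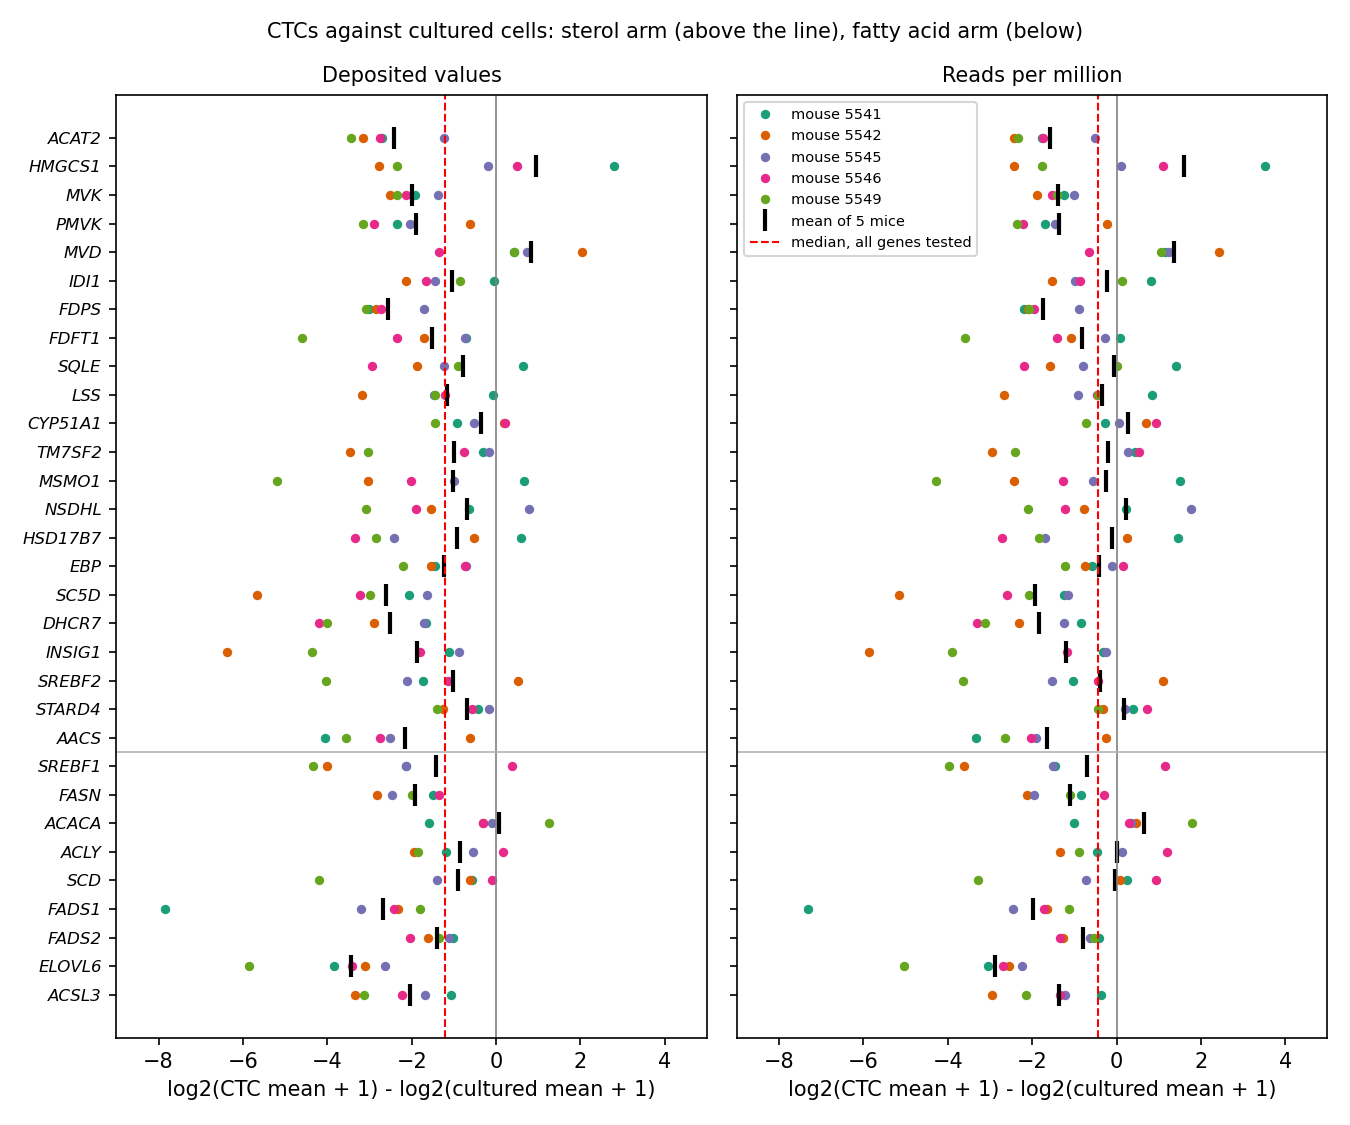
Log2 ratio of each mouse's mean to the cultured mean for the 31 members, with 1 added to both, on deposited values (left) and CPM (right). Colored points are mice, black bars the ratio of the mean of 5 mice, the red dashed line the median of all genes tested (-1.20 and -0.45), and the gray vertical line equal levels. ELOVL6 lies left of the dashed line in all 5 mice on both scales, while HMGCS1 and MVD have bars right of 0.

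A quasi-likelihood test in edgeR was run beside the rule on recovered reads, added up over the cells of each mouse and over the 6 cultured cells. With the culture taken as 1 sample, its spread has to come from the mice. At an adjusted p under 0.05 it called 0% of 13813 genes lower and 0% higher, and it called no member. At an unadjusted p under 0.05 there were 101 genes lower and 140 higher. The smallest unadjusted p of a member in this fit was 0.0555, for ELOVL6 (log2 ratio -2.31, edgeR adjusted p = 1). On reads simulated for this comparison edgeR called 7 of 100 genes changed 16-fold and 42 of 100 changed 256-fold, so the test had little reach for differences of the sizes seen here. The simulated reads were given less spread than the common dispersion of 1.47 fitted to the real reads. The simulated figures may therefore overstate the reach of the test. In the fit to the real reads the median log2 ratio over all genes was 0.31. Scaled by library totals instead, it also called 0 genes, with 248 lower and 58 higher at an unadjusted p under 0.05. The members among these were ELOVL6 (log2 ratio -2.86, unadjusted p = 0.0177) and FDPS (-1.56, unadjusted p = 0.0405), both with an edgeR adjusted p of 1.

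The first steps of the sterol arm build mevalonate and turn it into 5-carbon units. ACAT2, the cytosolic thiolase that joins acetyl-CoA, had a deposited value of 66.5, 197 and 658 at the lowest, median and highest of the cultured cells. Its mouse means were 40.5, 29.3, 113, 39.1 and 23.9 in mice 5541, 5542, 5545, 5546 and 5549, and only mouse 5545 exceeded the lowest cultured cell. The log2 ratio was -2.43 ± 0.85 (SD, n = 5 mice) and -1.58 ± 0.76 in CPM. HMGCS1, which makes HMG-CoA, was among the few members with a higher mean in CTCs. Its log2 ratio was 0.94 ± 2.27 on the deposited scale and 1.61 ± 2.38 in CPM. The deposited ratios of single mice ran from -2.77 to 2.80, so the sign of the ratio was not shared by the mice. Its mouse means were 54.8, 0.171, 6.05, 10.3 and 0.561 against a cultured mean of 7.01, and 3 of 5 mice lay below that mean, against 2 of 5 in CPM. The value of mouse 5541 came from 1 of its 2 cells, 5541-1, at 110. Of the exon bases of HMGCS1, 37.7% are shared with an antisense transcript, and the counting did not use strand. MVK, mevalonate kinase, was measured at 8.78, 32.8 and 77.9 at the lowest, median and highest of the cultured cells and had mouse means of 9.69, 6.06, 14.5, 8.21 and 6.87. Its log2 ratio of -2.0 ± 0.44 (-1.39 ± 0.33 in CPM) varied little between mice, but the single cells overlapped, and cell 5545-1 reached 87.9. PMVK, the next kinase, had mouse means of 5.25 to 35.3, all below the lowest cultured cell at 39.7, but mouse 5542 differed from the culture by less than 2-fold. Its log2 ratio was -1.91 ± 0.99 and, in CPM, -1.37 ± 0.85.

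MVD, which makes isopentenyl diphosphate, was the other sterol gene with a higher mean in CTCs on the deposited scale. In CPM MVD was among 5 sterol genes with a higher mean. Its deposited mouse means were 54.6, 169, 67.6, 15.2 and 54.8 against 20.7, 38.7 and 66.2 at the lowest, median and highest of the cultured cells. The log2 ratio was 0.83 ± 1.21 (1.35 ± 1.10 in CPM), with 4 of 5 mice above the cultured mean and mouse 5546 below it. Cell 5542-4, at 546, held most of the value of mouse 5542. In CPM 14 of 37 CTCs exceeded the highest cultured cell and 15 lay below the lowest, so MVD was spread to both sides of the culture. IDI1, the isomerase of the 5-carbon units, had mouse means of 209, 48.3, 78.6, 67.3 and 118 against a cultured mean of 216, with a log2 ratio of -1.04 ± 0.81 and, in CPM, of -0.23 ± 0.94.

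FDPS, farnesyl diphosphate synthase, was the leading sterol transcript of the cultured cells. Its deposited value was 342, 522 and 1505 at the lowest, median and highest of the cultured cells. The mouse means were 91.8, 103, 227, 112 and 87.1, and every one lay below the lowest cultured cell. The log2 ratio was -2.57 ± 0.56 (-1.75 ± 0.55 in CPM, where FDPS no longer met the rule), and 33 of 37 CTCs were below the lowest cultured cell. FDPS was detected in 34 of 37 CTCs, a number that only ACLY matched among the members. It held the largest share of the sterol sum in all 6 cultured cells and in 18 of 37 CTCs. The other 19 CTCs were led by EBP or IDI1 (5 each), FDFT1 (4), MVD (3), ACAT2 (1) or NSDHL (1). FDFT1, squalene synthase, the first enzyme committed to sterols, had mouse means of 134, 67.7, 133, 42.5 and 8.15 against a cultured mean of 222. Its log2 ratio of -1.51 ± 1.60 (-0.83 ± 1.44 in CPM) had a spread between mice larger than its size.

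The later enzymes turn squalene into cholesterol. SQLE, squalene epoxidase, and LSS, lanosterol synthase, had log2 ratios of -0.78 ± 1.32 and -1.16 ± 1.12 (-0.06 and -0.35 in CPM) and were at 0 in some cultured cells too. CYP51A1 did not reach the minimum level, and 68.2% of its exon bases are shared with another gene on the same strand. TM7SF2, a sterol reductase, had reads in 13 of 37 CTCs and 3 of 6 cultured cells. No read fell on TM7SF2 in the 4 CTCs of mouse 5542, which allows up to 0.469 CPM by counting error alone. HSD17B7, a sterol ketoreductase with a near-identical pseudogene, was seen in 13 CTCs. MSMO1, the sterol methyl oxidase, showed the widest spread between mice of these enzymes. Its mouse means were 188, 13.5, 58.5, 28.4 and 2.24 against 52.7, 115 and 197 at the lowest, median and highest of the cultured cells, and 29 of 37 CTCs were below the lowest. Its log2 ratio was -1.01 ± 2.20 and, in CPM, -0.26 ± 2.15. NSDHL, a sterol dehydrogenase of the same complex, had mouse means of 47.8, 25.4, 130, 19.5 and 8.10 against 75.8, and its log2 ratio was -0.70 ± 1.44 on the deposited scale but 0.22 ± 1.48 in CPM. The mean of mouse 5545 contains cell 5545-6, at 534. EBP, the sterol isomerase, lay near the general shift, with mouse means of 61.3, 57.6, 102, 101 and 35.7, a cultured mean of 169 and a log2 ratio of -1.23 ± 0.62 (-0.42 ± 0.54 in CPM).

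SC5D and DHCR7, the desaturase and the reductase of the last steps, both met the rule on the deposited scale. SC5D had mouse means of 12.7, 0.133, 17.4, 5.11 and 6.26 against 11.3, 58.8 and 85.5 at the lowest, median and highest of the cultured cells. Its log2 ratio was -2.62 ± 1.56 (-1.94 ± 1.63 in CPM), and 2 mouse means exceeded the lowest cultured cell. DHCR7 had mouse means of 41.7, 17.4, 40.8, 6.46 and 7.42, all below the lowest cultured cell at 48.3. Its log2 ratio was -2.52 ± 1.21 (-1.84 ± 1.10 in CPM, where it did not meet the rule). DHCR7 was detected in all 6 cultured cells and in 17 of 37 CTCs, and cell 5545-1, at 244, was the only CTC above the highest cultured cell at 199.

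The regulators of the sterol arm did not meet the rule. INSIG1 had mouse means of 41.9, 0.115, 49.4, 25.6 and 3.47, all below the lowest cultured cell at 53.4. Mouse 5545, however, differed from the cultured mean of 91.5 by less than 2-fold, and the log2 ratio was -1.88 ± 2.38 (-1.20 ± 2.48 in CPM). SREBF2 was low in all groups, with mouse means of 3.94, 22.3, 2.77, 6.40 and 0 against a cultured mean of 15.3. The 0 of mouse 5549 allows up to 0.678 CPM. The high mean of mouse 5542 came from cell 5542-8, at 67.6. STARD4, a sterol transfer protein, and AACS, which activates acetoacetate for lipid synthesis, had log2 ratios of -0.68 ± 0.54 and -2.16 ± 1.32, which were 0.17 ± 0.49 and -1.64 ± 1.14 in CPM. AACS had mouse means of 1.43, 25.2, 6.00, 4.97 and 2.38, and 34 of 37 CTCs lay below its lowest cultured value of 21.3.

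In the fatty acid arm ELOVL6 and FADS1 were furthest below the culture. ELOVL6, which elongates palmitate to stearate, had a deposited value of 46.4, 172 and 238 at the lowest, median and highest of the cultured cells. Its mouse means were 9.84, 17.1, 24.1, 13.5 and 1.68, and every one lay below the lowest cultured cell. The log2 ratio was -3.44 ± 1.25, and 1.78% of all genes tested had a lower one. In CPM the ratio was -2.87 ± 1.11, with 31 of 37 CTCs below the lowest cultured cell and none above the highest. It was the only member that met the rule on both scales and after centering. FADS1, the delta-5 desaturase, was measured at 219, 402 and 453 at the lowest, median and highest of the cultured cells. Its mouse means were 0.604, 72.3, 39.1, 67.6 and 105, all below the lowest cultured cell, and the log2 ratio was -2.68 ± 2.47 (-1.97 ± 2.54 in CPM). It led the fatty acid sum in all 6 cultured cells and in 13 of 37 CTCs, while ACLY led in 11, SCD in 7, ACSL3 in 4, and ELOVL6 and SREBF1 in 1 each. FADS2, the delta-6 desaturase, lies next to FADS1 and shares 490 exon bases with it. It was lower in every mouse, with means of 7.55, 4.66, 6.92, 3.17 and 5.73 against 16.3 and a log2 ratio of -1.39 ± 0.42 (-0.79 ± 0.43 in CPM), but its single cells overlapped with the cultured ones.

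FASN, fatty acid synthase, had mouse means of 8.65, 2.86, 3.93, 9.62 and 5.83 against 2.51, 14.9 and 83.4 at the lowest, median and highest of the cultured cells. It met the rule with a log2 ratio of -1.92 ± 0.62, but not in CPM (-1.10 ± 0.77), and every mouse mean lay within the range of the cultured cells. ACSL3, which couples long-chain fatty acids to CoA, had mouse means of 57.0, 11.0, 37.2, 25.0 and 12.9 against a cultured mean of 121, and 2 of them exceeded the lowest cultured cell at 30.1. Its log2 ratio was -2.05 ± 0.96 and, in CPM, -1.36 ± 0.99. ACLY, which cleaves citrate to cytosolic acetyl-CoA, and SCD, the stearoyl-CoA desaturase, did not meet the rule. Their log2 ratios were -0.85 ± 0.89 and -0.90 ± 1.64 on the deposited scale. In CPM the ratios were 0.01 ± 0.98 and -0.03 ± 1.64, above the median of all genes. The mouse means of ACLY in CPM were 34.2, 18.1, 51.6, 110 and 25.2 against 47.4 in culture. In mouse 5546 ACLY averaged 67.3 in the c and 159 in the s libraries. Those of SCD were 59.0, 52.7, 29.4, 96.0 and 4.16 against 49.4. ACACA, acetyl-CoA carboxylase, was low throughout, with a cultured mean of 9.14 and mouse means of 2.37, 7.20, 8.44, 7.24 and 23.2. Its log2 ratio was 0.08 ± 1.01 (0.65 ± 0.99 in CPM), and mouse 5549 contains cell 5549-6, at 76.6.

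**Figure D3:**
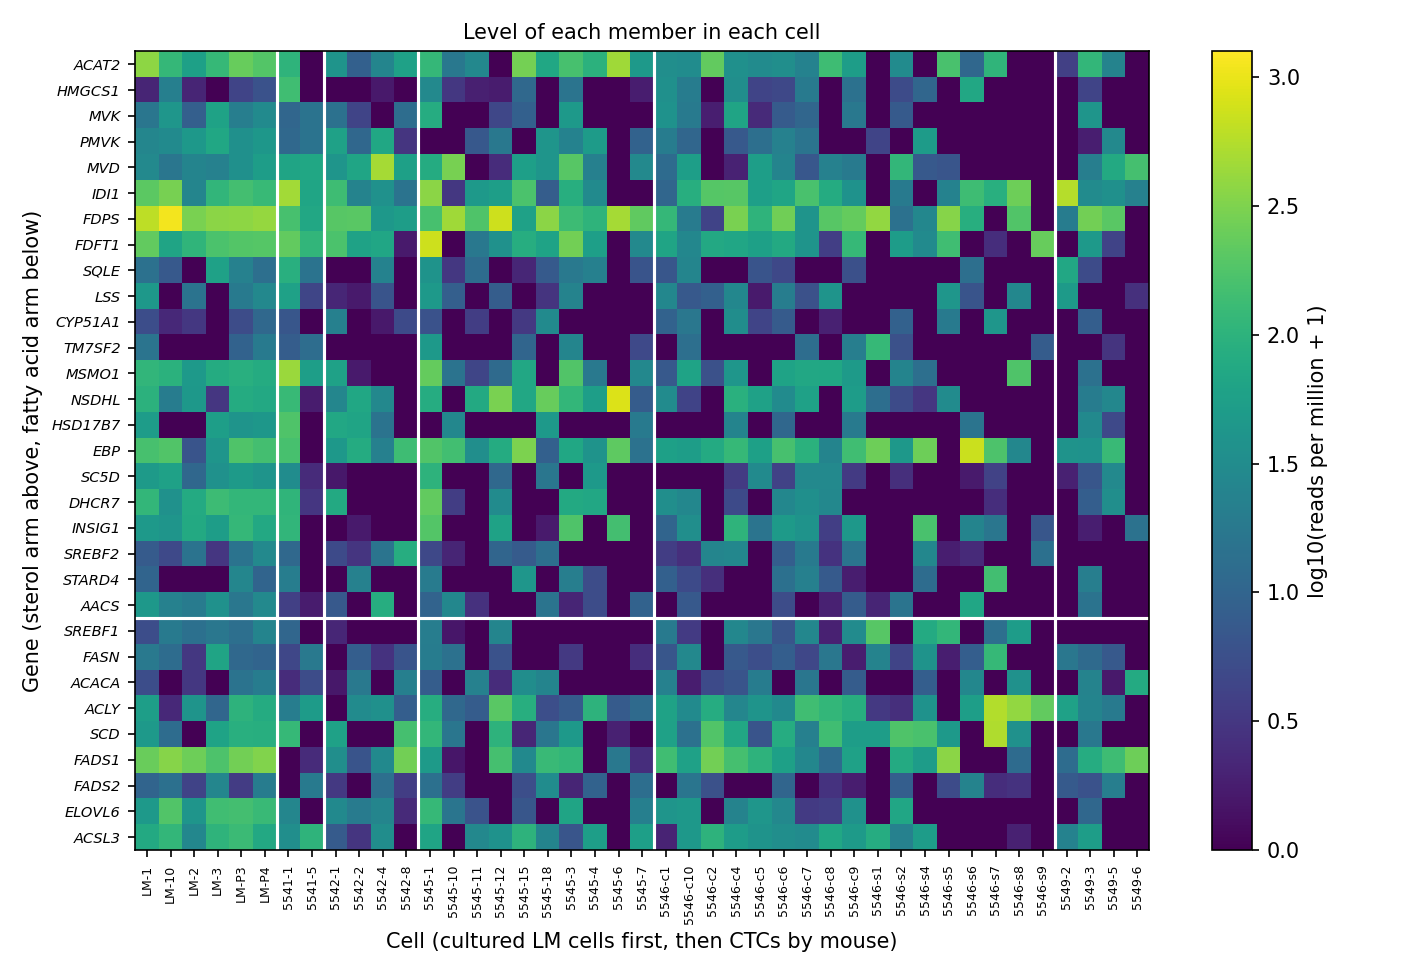
Level of each member (rows, sterol arm above and fatty acid arm below the white line) in each cell (columns, cultured cells first and then CTCs by mouse), as log10 of CPM with 1 added. FDPS and FADS1 are bright in all 6 cultured cells. ELOVL6 and DHCR7 are detected in all 6 cultured cells but in 21 and 17 of 37 CTCs, and the s libraries of mouse 5546 have more empty rows than the c libraries.

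Compared per kilobase of exon on the deposited scale, the members kept a similar order of levels in the 2 groups (Spearman's rho = 0.87 over 31 genes, a description across genes). In cultured cells FDPS stood first at 200 per kilobase, followed by ACAT2 at 102, EBP at 95.7, PMVK at 55.0 and IDI1 at 50.3. In CTCs EBP stood first at 40.5, followed by FDPS at 33.4, IDI1 at 24.3, NSDHL at 23.1, MSMO1 at 20.4 and ACAT2 at 18.6. These neighbors in CTCs do not differ beyond their spread between mice. HMGCS1 moved from place 30 to 17 and MVD from place 16 to 7, while ELOVL6 moved from 11 to 19. The CTC level of HMGCS1 rests mostly on cell 5541-1, at a deposited value of 110. The means of the mice other than 5541 were 0.171 to 10.3. HMGCS1 also shares 37.7% of its exon bases with an antisense transcript. EBP shares 36.4% of its exon bases with another gene on the same strand, FDPS 18.6% with an antisense gene, and ACAT2 17.2% with TCP1 on the other strand, so their levels carry that uncertainty.

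**Figure D4:**
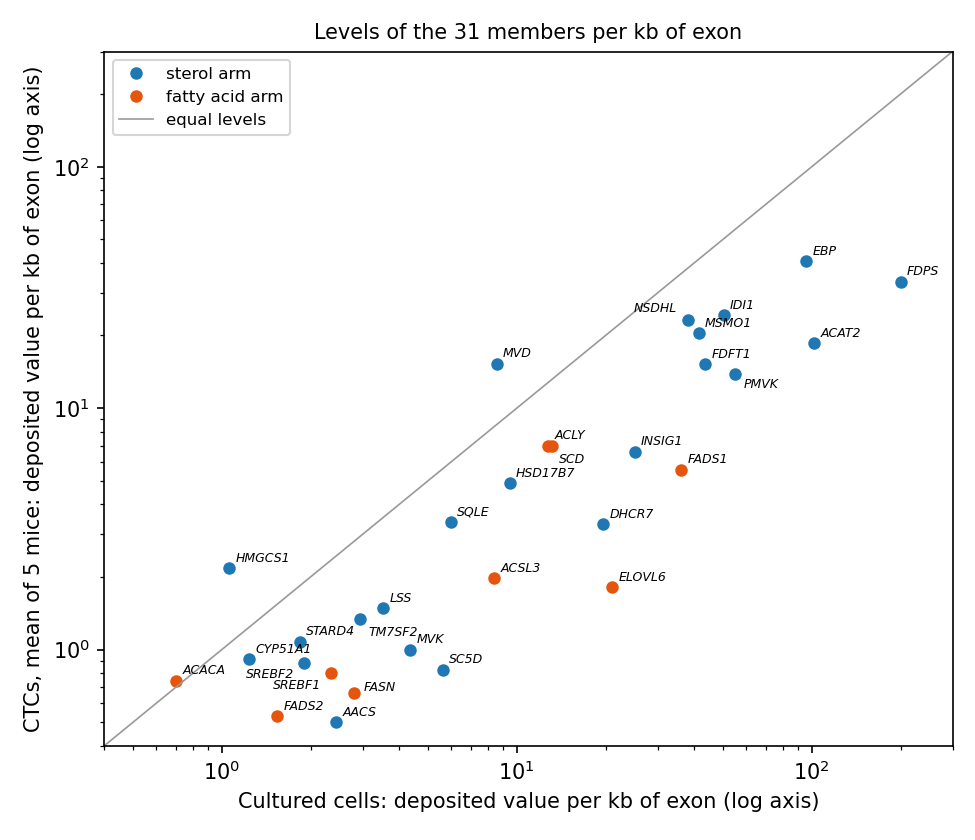
Deposited value per kilobase of exon in cultured cells (horizontal) and in CTCs as the mean of 5 mice (vertical), both on log axes, for the 22 sterol genes (blue) and 9 fatty acid genes (orange). The gray line marks equal levels. FDPS is at 200 against 33.4 and ELOVL6 at 21.1 against 1.82, while MVD, HMGCS1 and ACACA lie above the line.

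The balance of the 2 arms differed between mice. The ratio of the sterol sum to the fatty acid sum was 2.23 to 4.49 in cultured cells, with a median of 2.33. In mouse 5546 its median was 1.80, and 12 of 17 CTCs lay below the lowest cultured cell. In the other 4 mice 2 of 20 CTCs lay below it and 11 lay above the highest cultured cell. Ratios were compared as rounded here, and cell 5541-5, equal to the lowest cultured cell at 2.23, was not counted as below. The medians were 7.06, 7.05, 5.08 and 3.14 in mice 5541, 5542, 5545 and 5549. In mouse 5546 the c libraries had a median ratio of 2.17 and the s libraries one of 1.34. Mouse 5546 had the highest mean of 4 of the 9 fatty acid genes and of 1 of the 22 sterol genes. SREBF1 stood out most, with mouse means of 3.66, 0.265, 3.61, 25.5 and 0 on the deposited scale against 7.96, 19.2 and 30.7 at the lowest, median and highest of the cultured cells. Reads on SREBF1 were found in 13 of the 17 CTCs of that mouse and in 5 of the 20 others. In CPM its mean was 13.9 in the c and 55.7 in the s libraries of that mouse. The median log2 ratio of the sterol genes, taken relative to the median of all genes in the same mouse, was 0.87 in mouse 5541, -0.62 in mouse 5542, 0.00 in mouse 5545, -0.62 in mouse 5546 and -1.19 in mouse 5549. For the fatty acid genes it was 0.20, -0.96, -0.44, -0.01 and -0.17. These are single values per mouse from 2 to 17 cells, and differences between mice were not tested.

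Detection of the members moved with the number of genes detected in a cell. Over the 37 CTCs the number of sterol genes with a read followed the number of all genes with a read (rho = 0.85), and so did the number of fatty acid genes (rho = 0.84). The summed levels followed it less, with rho = 0.25 and 0.06. All 22 sterol genes were detected in 3 of 6 cultured cells and in 1 of 37 CTCs. All 9 fatty acid genes were detected in 3 cultured cells and in 3 CTCs. In mouse 5546 the c libraries had a median of 9670 genes and 18 sterol genes detected, and the s libraries of 6454 and 9. Of the 31 members 29 were detected in a smaller share of the s than of the c libraries, among them MVK, in 8 of 9 against 1 of 8, and ELOVL6, also in 8 of 9 against 1 of 8. The meaning of these letters is not given in the sources used here, and the part of detection in the differences between groups was not tested.

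**Figure D5:**
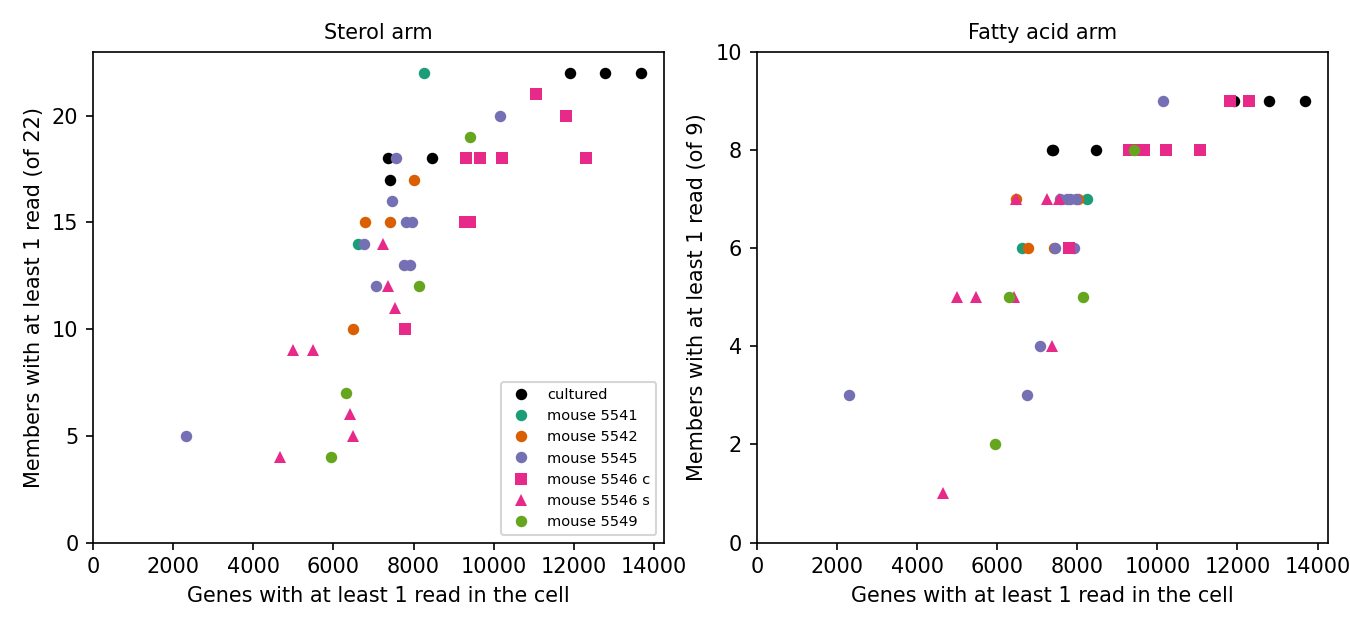
Number of sterol genes (left, of 22) and fatty acid genes (right, of 9) with at least 1 read against the number of all genes with at least 1 read, for each cell. Colors are mice, black is the culture, and squares and triangles are the c and s libraries of mouse 5546. Cell 5541-1 has all 22 sterol genes, the cell with 2313 genes has 5, and the cultured cells have 17 to 22.

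Within the CTCs, members of an arm were only weakly ordered alike. Among the 17 sterol genes detected in at least 50% of CTCs the median Spearman's rho of a pair was 0.18 over 37 CTCs, and 83.1% of pairs were positive, where the median over all pairs of 7014 genes was 0.08. For 8 fatty acid genes it was 0.09, and for pairs of a sterol and a fatty acid gene 0.12. Within mouse 5545 the sterol median was 0.20 beside 0.11 for all pairs, within the c libraries of mouse 5546 0.07 beside 0.02, and within its s libraries 0.02 beside 0.03. The highest single pairs were MVK with ELOVL6 at 0.67, HMGCS1 with ELOVL6 at 0.64, and MSMO1 with DHCR7 and with MVK at 0.58. SREBF1 and SCD reached 0.52. All these points share the depth and the number of genes of each cell. The sterol sum was most alike to its own members NSDHL (rho = 0.52), FDPS (0.51) and EBP (0.48), and the fatty acid sum to SCD (0.73) and SREBF1 (0.58). Each sum contains its members, so this likeness is partly built in. The other genes named next are the highest of all genes detected in at least 50% of CTCs, and their values were not tested. Among other genes the sterol sum was most alike to REXO2 (0.69), WDR46, TALDO1, RPL23AP82, NPC2, PRDX4, IFI44, VTI1A, SPINT2 and MPG (0.51), and the fatty acid sum to NSD2 (0.64), GID8, EIF4G2, TAF9B and TRIB2 (0.61), over 37 CTCs.

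Lists of neighboring lipid genes gave the following counts by the rule on the deposited scale, with 0 genes higher in each list. Of 24 genes of sterol regulation, transport and branch enzymes, 10 were lower, with a median log2 ratio of -1.72. The 5 furthest below were FNTB, a farnesyltransferase subunit (-3.60), SOAT1, which esterifies cholesterol (-3.51), LBR, a sterol reductase of the nuclear envelope (-3.03), ERLIN1 (-2.75) and the mitochondrial thiolase ACAT1 (-2.71). FNTB, SOAT1 and ACAT1 were also lower in CPM. Of 7 LXR receptors and targets 4 were lower, the cholesterol exporter ABCG1 (-3.65), NR1H3 (-2.99), LPCAT3 (-2.94) and NR1H2 (-1.42), with a median of -1.51. In CPM ABCG1 alone of these was lower by the rule. NR1H3, with a log2 ratio of -2.38 in CPM, fell under the minimum level there, at a cultured mean of 7.11, and was not tested. ABCG1 had reads in 3 of 6 cultured cells, with a deposited median of 0.807 and a maximum of 53.4 there. NR1H3 and LPCAT3 each had reads in 4 of 6 cultured cells. Of 24 other genes of fatty acid synthesis, elongation and esterification 6 were lower, with a median of -1.19. They included ME1, the cytosolic malic enzyme that supplies NADPH (-4.56), FADS3 (-3.84), MLX (-2.98), ELOVL5 (-2.47) and OXSM (-2.06), of which ME1, FADS3 and MLX were also lower in CPM. Of 8 genes of lipid droplets and uptake 2 were lower on both scales, the lipoprotein receptors SCARB1 (-3.55) and VLDLR (-2.59). In CPM the medians of these lists were -1.06, -0.79, -0.46 and -0.05, in the same order. The background of 25.1% lower on the deposited scale applies to the counts on that scale.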

How the data were processed

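Single-cell SMARTseq2 libraries of 37 CTCs from 5 mice and of 6 cultured LM2 cells were analyzed, and 4 further listed libraries were not analysed here. The deposited file holds a signal that the authors made in 3 steps. Reads were aligned to GRCh38 by STAR (2.7.10a), unique reads were counted on genes of GENCODE release 38 without strand, and counts were divided by a DESeq2 (1.42.1) size factor for each cell. Gene symbols, exon lengths and overlaps came from GENCODE release 44. Whole reads were recovered by dividing each value by the smallest nonzero one of its cell, and CPM were taken from them. Libraries carry no molecular identifiers, so limits from counts of 0 (3 reads over the cells of a mouse) cover counting error only.

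CTC values were averaged by mouse and compared with the mean of the cultured cells by the rule of size, with a pseudocount of 1 in log2 ratios, so that ratios of low genes are understated. Nothing says that the cultured cells are independent samples. The 31 members, the wider lists and the markers were chosen with earlier results of these data known. Named are all members, genes of wider lists that met the rule (at most 5 a list), and the 10 and 5 genes most alike to the sums. The list of fatty acid oxidation genes is not reported here. Alternatives were other pseudocounts, folds, averages and scales, thinning, left-out cells and mice, and edgeR (4.0.16) in R (4.3.3). Centering on the median of all genes was added after seeing the data. Scripts ran in Python (3.11.15) and were tested on simulated data.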

Additional observations from a re-analysis of the deposited data

Results flagged for a closer look

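In 43 groups of 4 to 10 values, a highest or lowest value stood apart from the rest by Dixon's criterion in 11. The criterion's rate of about 1 in 20 holds for independent, normally distributed values. The groups here were untransformed sums, their ratios and mouse means, which share cells. The count of 11 is therefore a description and was not compared with that rate. Within mouse 5542, cell 5542-8 had the highest fatty acid sum, at 466 CPM with the next cell at 135, and the lowest ratio of sterol to fatty acid sum, at 0.907 with the next at 6.77. Within mouse 5545, cell 5545-6 had a ratio of 90.6, with the next cell at 16.9, and this cell had reads in 3 fatty acid genes. Among the mouse means of the 31 members on the deposited scale, mouse 5545 stood apart for ACAT2 (113, next 40.5) and FDPS (227, next 112). Mouse 5541 stood apart for HMGCS1 (54.8, next 10.3) and SQLE (40.6, next 13.3), and it has 2 CTCs. Mouse 5542 stood apart for PMVK (35.3, next 12.6), SREBF2 (22.3, next 6.40) and AACS (25.2, next 6.00), and mouse 5546 for SREBF1 (25.5, next 3.66). In each case the value was the highest of the 5 mice.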

How the results depend on the processing

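No member was higher in CTCs by the rule of size under any alternative run. Of 84 alternative medians and sums 83 kept a value below 0. The exception was the sterol median, -1.10 on deposited values, which was 0.10 after centering on the median of all genes (the centered values subtract that median by construction). The edgeR fits entered as counts of genes only and are not among the 84. With TMM the edgeR log2 ratios of the sterol genes lay on both sides of 0, from -1.43 for SC5D to 2.45 for HMGCS1. The median over all genes in that fit was 0.31. Leaving out 1 mouse or 1 cultured cell gave sterol medians of -1.73 to -0.92, fatty acid medians of -2.0 (without mouse 5546) to -1.13, sterol sums of -1.83 to -1.44 and fatty acid sums of -2.26 to -1.99. It gave 4 to 8 sterol genes lower, the 8 without mouse 5542, and 3 to 6 fatty acid genes lower, the 3 without cultured cell LM-3, beside 5 and 5 in the report, and 0 to 0 higher in both arms.

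The sterol count of 5 became 10 at 1.5-fold, 0 at 4-fold, 8 with medians of the cells, 8 with means of log2 values, 2 in CPM, 1 after thinning each cell to 469614 reads, 0 after centering, and 0 in edgeR with TMM, library totals or no filter. The fatty acid count of 5 became 2 with a pseudocount of 8, 1 at 4-fold, 2 in CPM, 2 after thinning, 1 after centering, and 0 in all 3 edgeR fits. The log2 ratio of the sterol sum, -1.64, became -0.87 in CPM, -0.85 after thinning and -0.44 after centering, and that of the fatty acid sum, -2.08, became -1.32, -1.28 and -0.88. The fatty acid median, -1.42, became -0.90 with a pseudocount of 8, -1.92 with medians of the cells, -1.89 with means of log2 values, -0.79 in CPM, -0.81 after thinning, -1.94 without the s libraries of mouse 5546 and -0.22 after centering. The share of all genes lower by the rule was 25.1% in the main setting, 8.72% in CPM and 2.65% after centering. It was not computed for other folds, averages or pseudocounts, for thinning, or for left-out cells and mice. Counts of members at those settings therefore have no background to be read against. The comparison rests on 1 sample of cultured cells and on 2 to 17 CTCs per mouse. The edgeR fit without a filter called 7 genes lower and 20 higher of 25739, no member among them. No paired analysis was possible because the groups share no replicate numbers.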
